A study of Mus musculus with 39 samples.

Results

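The H3K4me1 CUT&Tag peak lists of the DP and Oct4+ populations of naive extra-embryonic endoderm (nEnd) were compared gene by gene. The lists were chosen by mark and population from the sample titles, and comprised 6 of the 36 deposited peak lists: 3 DP and 3 Oct4+ libraries, holding 55206 peaks in all. In CUT&Tag, an antibody brings a transposase to a histone mark so that the DNA beside it is cut and sequenced. The nEnd cells came from 1 mouse embryonic stem cell (ESC) line that carries an OCT4-mCherry protein reporter. The cells had been differentiated to primitive endoderm, sorted for PDGFRA and expanded on mouse embryonic fibroblast feeders with Activin A, CHIR99021 and LIF, without further treatment. Both groups share that line, reporter and culture. Cells with OCT4-mCherry alone were sorted as Oct4+, and cells with both OCT4-mCherry and surface PDGFRA, a receptor of the primitive endoderm, as DP. The gates therefore used the products of Pou5f1 and Pdgfra, and values at these genes are not independent of the sort. Since a population is a mixture of cells, more cells with the mark and more mark in each cell cannot be told apart.

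H3K4me1 is a methyl mark that is laid down at enhancers, often before they become active, while H3K27ac is added at active enhancers and H3K27me3 is laid down by Polycomb complexes at repressed genes. The inner cell mass gives rise to the epiblast, which depends on OCT4, SOX2, NANOG and ESRRB, and to the primitive endoderm, which depends on GATA6, GATA4 and SOX17 and makes a laminin and collagen IV basement membrane. FGF4 from epiblast cells promotes the primitive endoderm fate through FGF receptors and ERK. The comparison of DP with Oct4+ cells addresses which regulatory regions distinguish OCT4-expressing endoderm from its pluripotent, de-differentiated derivatives.

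The regions that most plainly separated the populations are shown first. They were merged H3K4me1 intervals with one of the strongest peaks (as many per list as the shortest list holds) in all 3 lists of 1 population and no listed peak in the other, and were taken from the 3 strongest by mean rank in each direction whose nearest gene is in one of the gene lists used below. Each line gives 200 bp of the plus strand of the RefSeq GRCm38 genome, 5′ to 3′, around the signal maximum of the strongest peak, with matches to any of 9 transcription factor motifs in capitals.
Foxq1 DP-only region, chr13:31492538-31492737: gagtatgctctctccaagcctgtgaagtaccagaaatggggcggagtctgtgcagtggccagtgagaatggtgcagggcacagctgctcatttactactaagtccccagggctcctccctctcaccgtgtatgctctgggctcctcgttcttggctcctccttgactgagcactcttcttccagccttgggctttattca
Pth1r DP-only region, chr9:110751607-110751806: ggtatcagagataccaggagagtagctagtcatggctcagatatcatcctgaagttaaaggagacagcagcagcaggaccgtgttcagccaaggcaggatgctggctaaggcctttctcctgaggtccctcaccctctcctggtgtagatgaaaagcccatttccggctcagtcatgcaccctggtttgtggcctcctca
Col18a1 Oct4-only region, chr10:77132360-77132559: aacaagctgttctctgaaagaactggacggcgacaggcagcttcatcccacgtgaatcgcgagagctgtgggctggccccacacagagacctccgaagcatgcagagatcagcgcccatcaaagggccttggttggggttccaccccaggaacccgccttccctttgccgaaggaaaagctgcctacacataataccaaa
Prdm14 Oct4-only region, chr1:13085206-13085405: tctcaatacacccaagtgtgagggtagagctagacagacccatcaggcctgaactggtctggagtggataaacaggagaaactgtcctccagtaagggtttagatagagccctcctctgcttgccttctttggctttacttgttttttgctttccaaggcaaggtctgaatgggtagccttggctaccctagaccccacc
Col18a1 Oct4-only region, chr10:77199490-77199689: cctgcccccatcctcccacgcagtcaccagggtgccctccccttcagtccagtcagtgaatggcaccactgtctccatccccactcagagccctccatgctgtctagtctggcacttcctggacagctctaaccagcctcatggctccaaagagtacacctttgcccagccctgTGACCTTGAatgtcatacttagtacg

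The Foxq1 and Pth1r windows lie in DP-only regions near endoderm genes. The Foxq1 window is intergenic, upstream of the transcription start site (TSS) of this endoderm transcription factor, at -63.5 kb. The Pth1r window, at -4.56 kb from the TSS of a receptor gene of parietal endoderm, is in an intron of the neighbouring gene Myl3. The other three lie in Oct4-only regions. One Col18a1 window is in an intron of that gene and the other is intergenic, at -33.0 kb from the TSS. The Prdm14 window is intergenic, 41.9 kb downstream of the start of this naive pluripotency regulator. An ESRRB motif stands in the upstream Col18a1 window, and the other windows shown held none of the 9.

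Lists differed in length, and whether this reflects how deeply each library was sampled is not known. DP lists held 4371, 11874 and 11334 peaks, and Oct4+ replicates 2 and 3 held 16057 and 7443. Replicate 1 was the shortest list of both populations, and Oct4+ replicate 1, shorter than DP replicate 1, was the shortest of all. The lowest total signal (coverage summed over a peak) of a listed peak ran from 5344 to 14106, and read depth is unknown. Peaks were therefore also compared at equal length, with the strongest peaks of each list by total signal, as many as Oct4+ replicate 1 holds. Each peak was given to the protein-coding gene whose TSS was nearest to its centre. Absence from a list does not show that a gene lacked the mark.

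Similar numbers of genes carried the mark in both populations. DP lists gave a peak to 2748, 6551 and 5680 genes, and Oct4+ lists to 2792, 7504 and 4236. The means of 4993 ± 1992 (SD, n = 3) and 4844 ± 2414 (n = 3) differed by 149 genes (exact two-sided permutation test, p = 1), well under the spread between replicates. At equal length the counts were 2632, 2813 and 2576 genes in DP and 2792, 2632 and 2624 in Oct4+. With 3 libraries against 3 the smallest p such a test can give is 0.10, so no test here could pass 0.05.

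The genes themselves differed. At equal length, the gene sets of 2 DP libraries had a Jaccard index (shared genes over genes in either) of 0.541 on average (0.502 to 0.588), those of 2 Oct4+ libraries 0.504 (0.477 to 0.555), and a DP and an Oct4+ library 0.283 (0.259 to 0.309). The ranges within and between populations did not overlap. With all peaks the indices were 0.483, 0.444 and 0.331, and the ranges did overlap.

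Of 21911 protein-coding genes, 468 (2.14%) had a peak in all 3 DP lists and in no Oct4+ list (DP-only), and 421 (1.92%) had one in all 3 Oct4+ lists and in no DP list (Oct4-only). At equal length there were 512 DP-only (2.34%) and 479 Oct4-only genes (2.19%). A gene can become DP-only at equal length when its Oct4+ peaks are weak: 281 of the 512 had a peak in some full Oct4+ list, and 268 of the 479 in some full DP list. Genes that were in the strongest peaks of all 3 libraries of 1 population and in no full list of the other, called strict here, numbered 231 in DP (1.05%) and 211 in Oct4+ (0.963%). A further 965 genes had a peak in all 6 full lists. Without DP replicate 1 there were 1160 DP-only genes and without Oct4+ replicate 2 there were 875, and without Oct4+ replicate 1 there were 955 Oct4-only genes. With a peak counted only within 20 kb of the TSS, the Oct4-only genes numbered 272.

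More endoderm transcription factor genes had a strong H3K4me1 peak in DP. Of the 16 genes of this list, 9, 10 and 9 had one of the strongest peaks in the DP libraries and 4, 2 and 4 in the Oct4+ libraries. This is 58.3% of members on average in DP and 20.8% in Oct4+, against 12.2% of all protein-coding genes in both. At equal length 4 of the 16 were DP-only (Gata4, Foxa2, Foxa3 and Foxq1), against 2.34% of all genes, and none was Oct4-only. With all peaks 9, 13 and 11 members had a peak in DP and 4, 12 and 8 in Oct4+, which overlapped, and Foxa2 alone was DP-only. The plot of list shares by library shows these values beside the other lists.

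**Figure D1:**
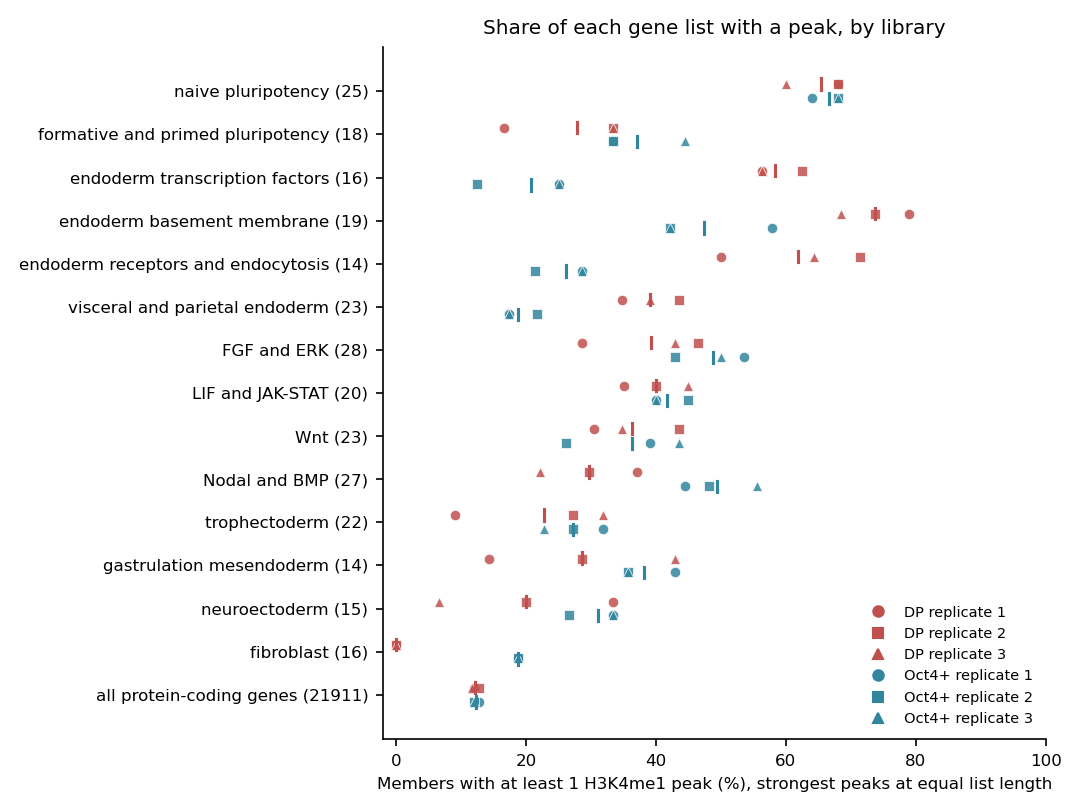
Share of the members of each gene list with at least 1 of the strongest H3K4me1 peaks of a library, at equal list length (x axis, %), with the number of members in brackets. Points are libraries (some coincide), and short bars are means of 3. For endoderm transcription factors every DP library lies above every Oct4+ library, while for naive pluripotency the means are 65.3% in DP and 66.7% in Oct4+.

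Foxa2, which encodes a pioneer factor of endoderm, had 4, 10 and 11 peaks in the DP libraries and none in any Oct4+ library. Foxq1, a forkhead factor gene, had 6, 12 and 12 in DP and 0, 1 and 0 in Oct4+. The groups overlapped at neither gene, and Foxq1 is nearest to 5 DP-only regions. Gata4, a GATA factor of the primitive endoderm, had 3, 4 and 9 peaks in DP and 0, 1 and 1 in Oct4+. Sox17, the endodermal SOX factor, had 2, 6 and 7 against 0, 1 and 1. In both the lowest DP library exceeded the highest Oct4+ library. Gata6, an early factor of the primitive endoderm, behaved otherwise. It had 2, 11 and 11 peaks in DP and 2, 4 and 2 in Oct4+, so the groups overlapped. It was nearest to 1 DP-only and 1 Oct4-only region.

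Basement membrane genes also had a strong peak more often in DP at equal length. Of 19 members, 15, 14 and 13 had one of the strongest peaks in DP and 11, 8 and 8 in Oct4+, against 12.2% of all genes in both. With all peaks the counts overlapped, at 15, 16 and 14 in DP and 11, 16 and 13 in Oct4+. At equal length Col4a2, Lamb1, Nid2 and Plod2 were DP-only, against 2.34% of all genes, and none was Oct4-only. With all peaks the DP-only member was Plod2, whose product hydroxylates collagen lysines, with 2, 4 and 3 peaks in DP and none in Oct4+. Col4a1, a collagen IV chain gene, had 8, 4 and 7 peaks in DP and 1, 3 and 2 in Oct4+. Col4a2, which shares its promoter region with Col4a1, had 3, 6 and 8 against 0, 2 and 1. For both, every DP library was above every Oct4+ library, although Col4a2 had a peak in more Oct4+ than DP libraries when peaks were counted only within 20 kb of a TSS. Nearest-TSS assignment crosses these neighbouring genes. Regions assigned to Col4a1, such as chr8:11356852-11401653, lay in introns of Col4a2. Regions assigned to Col4a2, such as chr8:11250499-11286731, lay inside Col4a1. The counts of each gene thus include peaks in the body of the other. Lamb1, a laminin beta chain gene, had 1, 4 and 5 peaks against 0, 1 and 0. Col18a1, which encodes a basement membrane proteoglycan, went the other way, with 1, 1 and 0 peaks in DP and 6, 10 and 6 in Oct4+.

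Among 14 genes of endodermal receptors and endocytosis, 7, 10 and 9 had one of the strongest peaks in DP and 4, 3 and 4 in Oct4+, and 7, 12 and 10 against 4, 7 and 6 had any peak. Over all genes, 12.2% had one of the strongest peaks in both populations, and 22.8% in DP and 22.1% in Oct4+ had any peak. Cubn, Pdgfra and Aqp8 were DP-only with all peaks and at equal length, and Lrpap1, which encodes a chaperone of endocytic receptors, at equal length. DP-only genes were 2.14% of all genes with all peaks and 2.34% at equal length. Pdgfra, whose product was used for the sort, had 3, 5 and 8 peaks in DP and none in Oct4+. Cubn, which encodes the endocytic receptor cubilin, had 2, 3 and 4 in DP and none in Oct4+. Aqp8, a water channel gene, had 4, 4 and 4 in DP and none in Oct4+. The 23 visceral and parietal endoderm genes had such a peak at 8, 10 and 9 members in DP and 4, 5 and 4 in Oct4+, and any peak at 8, 13 and 12 against 4, 11 and 6, which overlapped. Ttr (a transport protein for thyroid hormone), Apoa4 (an apolipoprotein) and Pth1r were DP-only under both settings. Dkk1, a secreted Wnt inhibitor, was DP-only at equal length. Stra6, a retinol uptake receptor, was Oct4-only with all peaks, against 1.92% of all genes.

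Naive pluripotency genes did not separate in the same way. Of 25 naive pluripotency genes, 17, 17 and 15 had one of the strongest peaks in DP and 16, 17 and 17 in Oct4+. With all peaks 17, 22 and 21 had one in DP and 16, 20 and 19 in Oct4+. Pou5f1, the reporter gene, had 1, 2 and 2 peaks in DP and 3, 2 and 2 in Oct4+. Nanog had 2, 5 and 6 in DP and 3, 8 and 4 in Oct4+. The groups overlapped at both genes. Nr5a2, a nuclear receptor gene that maintains Pou5f1 expression, was Oct4-only at equal length, and had 0, 1 and 0 peaks in DP and 2, 4 and 2 in Oct4+ with all peaks. Utf1 was DP-only at equal length and Dppa4 with all peaks, each a chromatin-associated pluripotency marker. Each of these calls was 1 of the 25 members, against 2.14% to 2.34% of all genes.

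A few naive pluripotency genes differed in the number of peaks. With all peaks, 3 of the 25 (Esrrb, Klf2 and Nr5a2) had more peaks in every Oct4+ list than in any DP list and 1 (Dppa4) the reverse. Peaks summed over the list overlapped, at 39, 82 and 88 in DP and 42, 119 and 71 in Oct4+. Esrrb, an orphan nuclear receptor gene, had 2, 3 and 2 peaks in DP and 5, 11 and 10 in Oct4+. Klf2 had 1, 1 and 2 against 3, 6 and 6. In neither did the groups overlap. Sox2 had 1, 1 and 2 peaks in DP and 2, 11 and 4 in Oct4+, and at equal length 1, 0 and 0 against 2, 3 and 4, which did not overlap. Prdm14 had 1, 4 and 3 against 3, 7 and 6, and at equal length 1, 2 and 1 against 3, 4 and 5. Other members had the higher mean in DP: Klf4, a Krüppel-like factor gene, had 4, 7 and 8 peaks in DP and 3, 4 and 3 in Oct4+, and Sall4, a zinc-finger factor gene, had 5, 6 and 8 against 2, 6 and 2. Their groups met or overlapped. Across all genes, every DP list had more peaks than every Oct4+ list at 621 genes (2.83%), and the reverse held at 548 (2.50%). At equal length these were 631 (2.88%) and 603 genes (2.75%). Without DP replicate 1 the first count was 1734 and without Oct4+ replicate 2 it was 1120. The reverse count was 1456 without Oct4+ replicate 1. Within 20 kb of a TSS the counts were 403 and 317.

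**Figure D2:**
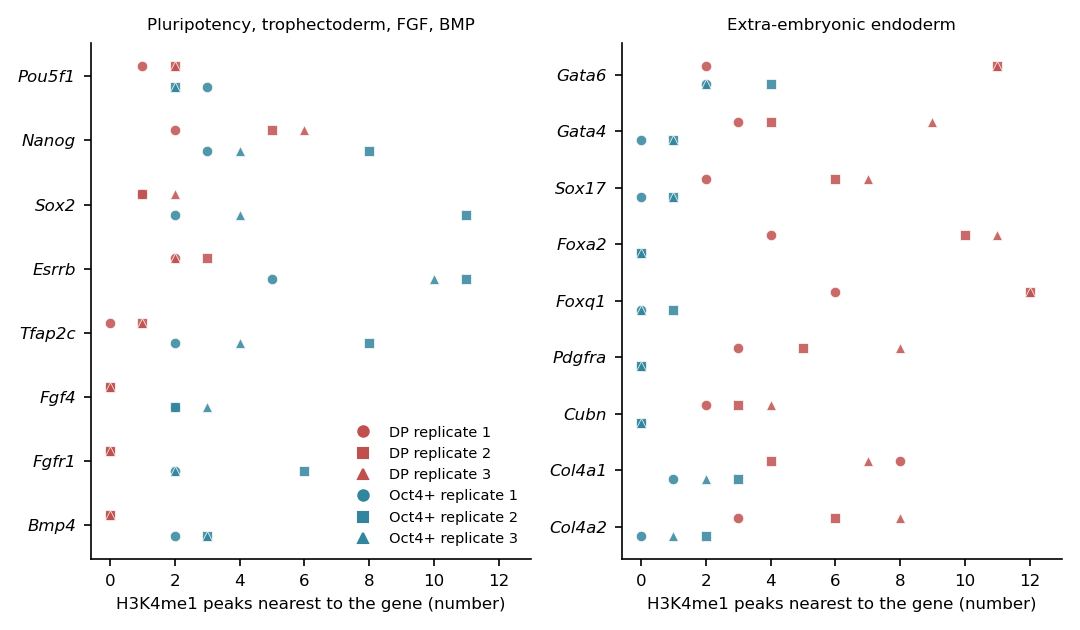
Number of H3K4me1 peaks nearest to each gene in the full list of each library (x axis), for pluripotency, trophectoderm, FGF and BMP genes (left) and endoderm genes (right). Symbols mark replicates, and coinciding points hide each other. Fgf4, Fgfr1 and Bmp4 have no peak in DP, and Foxa2, Pdgfra and Cubn have none in Oct4+.

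A few signalling genes of the FGF pathway were Oct4-only. Fgf4 had 2, 2 and 3 peaks in Oct4+ and none in DP, and was among the 10 strongest strict Oct4-only genes. Fgfr1, an FGF receptor gene, had 2, 6 and 2 peaks in Oct4+ and none in DP, under both settings. Spred1, an ERK inhibitor gene, had 1 peak in each Oct4+ list and none in DP. Of the 28 FGF and ERK genes 3 were thus Oct4-only with all peaks, against 1.92% of all genes, and none was DP-only. At equal length Fgf4 and Fgfr1 were Oct4-only and Dusp4, an ERK phosphatase gene, was DP-only, against 2.19% and 2.34% of all genes. By region, the list was nearest to 9 Oct4-only and 7 DP-only regions, of which 3 DP-only regions were at Spry2, a gene of an FGF signalling inhibitor, which had 4, 8 and 5 peaks in DP and 1, 4 and 1 in Oct4+. Fgf15, which neighbours Fgf4 and is in the formative and primed list, had 1, 3 and 2 peaks in Oct4+ and none in DP. Foxd3, a forkhead factor of the epiblast in the same list, had 1, 5 and 3 in Oct4+ and none in DP. Of the 18 genes of that list these 2 were Oct4-only with all peaks, against 1.92% of all genes, and 0 were DP-only. With all peaks 3, 8 and 8 members had a peak in DP and 6, 16 and 11 in Oct4+. At equal length these were 3, 6 and 6 against 6, 6 and 8, and the groups met or overlapped under both settings.

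Of the 27 Nodal and BMP genes, 10, 8 and 6 had one of the strongest peaks in DP and 12, 13 and 15 in Oct4+, and with all peaks the counts overlapped, at 11, 17 and 16 against 12, 23 and 19. Bmp4, a ligand gene, had 2, 3 and 3 peaks in Oct4+ and none in DP. Acvr2b, an activin receptor gene, had 1 in each Oct4+ list and none in DP. These 2 were the Oct4-only members with all peaks, against 1.92% of all genes, and no member was DP-only. Over all genes, 12.2% had one of the strongest peaks in both populations. In the Wnt list, Rnf43, whose product removes Wnt receptors, was DP-only under both settings, with 1 peak in each DP list. Over all genes, 2.14% were DP-only with all peaks and 2.34% at equal length. Of the 20 LIF and JAK-STAT genes none was DP-only or Oct4-only with all peaks. Socs1, a JAK inhibitor gene, had 4, 8 and 8 peaks in DP and 1, 0 and 1 in Oct4+. Gbx2, a STAT3 target in ESCs, had 0, 1 and 0 in DP and 2, 8 and 4 in Oct4+.

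Each of the trophectoderm, mesendoderm and neuroectoderm lists held at most 1 call per direction and setting. Over all genes, the share called was 1.92% to 2.34%. Of the 22 trophectoderm genes, 2, 6 and 7 had one of the strongest peaks in DP and 7, 6 and 5 in Oct4+, against 12.2% of all genes in both. Tfap2c, which encodes a trophectoderm factor, had 0, 1 and 1 peaks in DP and 2, 8 and 4 in Oct4+, and Cdx2 had 0, 1 and 0 against 0, 2 and 0. Cdh3 was Oct4-only with all peaks. Gata2 was DP-only and Eomes Oct4-only at equal length. Among the 14 mesendoderm genes, Mixl1 was DP-only and Gsc Oct4-only with all peaks. At equal length Lhx1 was DP-only and Eomes, which is also in this list, Oct4-only. None of the 15 neuroectoderm genes was called in either direction.

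Few markers of fibroblasts, the cells of the feeder layer, were assigned strong peaks, and those were in the Oct4+ libraries only. Of 16 fibroblast genes, 0, 0 and 0 had one of the strongest peaks in DP and 3, 3 and 3 in Oct4+, where Col3a1, Twist2 and Loxl1 were Oct4-only. Their strict regions were intergenic at 47.1 kb (Col3a1) and 27.8 kb (Loxl1) from the TSS, and in an intron of Hdac4 at 162 kb (Twist2). A region at the Loxl1 promoter was in 2 Oct4+ lists. The 3 members were 18.75% of the list in Oct4+, against 12.2% of all genes in both populations. Oct4-only genes at equal length were 2.19% of all genes. The list's strongest peaks summed to 0 in every DP library and to 3 to 4 in the Oct4+ libraries. With all peaks the groups overlapped, with 1, 3 and 3 members marked in DP and 3, 5 and 3 in Oct4+. On average these were 14.6% and 22.9% of members, against 22.8% and 22.1% of all genes. Col1a2 had 0, 1 and 2 peaks and Dcn 0, 1 and 0 in DP, with none in Oct4+, and Col1a1, Fap, Postn, Lum and Prrx1 had no peak in any list. Both populations were gated on OCT4-mCherry, a reporter that the nEnd line carries, and the part of feeder cells in the results above was not tested.

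The strongest strict genes, whether in a list or not, were named by the mean rank of their best peak. In DP they included Aqp1, Noxa1, Pdlim4, Zfp239, Pth1r, Bend5, Gm6993, Fnip2 and Neil2. The best Aqp1 peak, at a water channel gene, ranked 2, 108 and 25 in the DP lists. Nearest-TSS assignment bears on some of these names: Neil2 (chr14:63182443-63193856) neighbours Gata4 (chr14:63198922-63271692), and Gm6993 (chr12:31240770-31240979) neighbours Lamb1 (chr12:31265234-31329644). The region of the best Neil2 peaks (chr14:63204553-63241091) lies inside Gata4 and also overlapped a peak in 2 Oct4+ lists. Those Oct4+ peaks were assigned to Gata4, so Neil2 was strict by assignment while the region itself was marked in both populations. Neil2 was nearest to 0 DP-only regions. In Oct4+ they were AC124108.1, Rps27rt, Vwf, Dio3, Lrfn2, Kcnq1, Cd74, Fgf4, Cxcl17 and Slc4a5. Some of these names also rest on assignment. The strict Rps27rt region lay in an intron of Osbpl10 and the Cd74 region in an intron of Tcof1. The Dio3 region was intergenic, at -330 kb from the TSS. Kcnq1, a potassium channel gene of an imprinted domain, had best peaks at ranks 499, 346 and 38.

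The largest differences in peak number were at Foxq1, Foxa2, Bend5, Cyp26b1 and Ets1 in DP. Cyp26b1, which encodes a retinoic acid-degrading enzyme, had 8, 10 and 9 peaks in DP and 0, 1 and 0 in Oct4+. The DP-only regions assigned to Cyp26b1 lay 99.0 to 265 kb from its TSS, the one at -102 kb in an intron of Exoc6b. Ets1, an ETS factor gene, had 5, 12 and 9 peaks in DP and 0, 1 and 0 in Oct4+. In Oct4+ they were at Msi2, Zfp281, Rybp, Zfp423 and Gli2. Msi2, an RNA-binding protein gene, had 6, 20 and 14 peaks in Oct4+ and none in DP. Gli2, a Hedgehog effector gene, had 5, 12 and 7 in Oct4+ and none in DP. Zfp281, a zinc-finger factor of pluripotent cells, had 7, 15 and 9 in Oct4+ and 0, 6 and 3 in DP. Rybp, a Polycomb component gene, was marked in both, with 20, 29 and 22 peaks in Oct4+ and 11, 15 and 14 in DP.

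At the level of regions, the 6 lists merged to 24164 intervals. DP-only regions numbered 1393, Oct4-only regions 1032 and regions shared by all 6 lists 761, while 10650 (44.1%) were in 1 list. At equal length there were 928, 775 and 449. Without DP replicate 1 the DP-only regions numbered 3579, and Oct4-only regions numbered 2905 without Oct4+ replicate 1 and 1590 without Oct4+ replicate 3. With a reciprocal overlap of 50% they were 538 and 579. Many of the genes concerned were marked in both populations, through other regions: 713 of the 1151 genes nearest to a DP-only region had a peak in an Oct4+ list, and 511 of the 875 nearest to an Oct4-only region had a peak in a DP list. Of these genes 90 were nearest to both kinds, among them Prdm14, Mycn, Kit, Myc, Bmp7, Smad2, Tcf7l1 and Dnmt3a, which were picked after their values were seen.

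The loci of Sox2, Esrrb, Myc and Nanog illustrate these regions. At Sox2 an Oct4-only region (chr3:34758851-34767785) lay 113 kb downstream of the TSS, in the interval known to hold the distal Sox2 enhancer of ESCs. Its total signal was 6466, 39231 and 22636 in the Oct4+ libraries, and no DP library had a listed peak there. The adjacent region (chr3:34754500-34758440), 106 kb downstream, had a peak in 1 DP list, of total signal 9689 in replicate 3, and in 2 Oct4+ lists. At Esrrb a region in the gene's introns was marked in all 6 lists (chr12:86465997-86499653), and 2 neighbouring intronic regions (chr12:86501049-86505561 and chr12:86506803-86515271) were Oct4-only. Beyond Myc, a gene of growth control, 3 intergenic DP-only regions lay 186, 229 and 236 kb downstream of the TSS, and an Oct4-only region lay 70.0 kb downstream. Of the regions assigned to Nanog, 1 was shared by all 6 lists (chr6:122725982-122747866) and the adjacent one (chr6:122749635-122753765) was DP-only, both with their maxima in introns of Slc2a3. Another region shared by all 6 lists (chr6:122659564-122670895) lies upstream of Nanog but was assigned to Dppa3. The paper reports a distal upstream Nanog super enhancer, primed in DP and activated in Oct4+ cells, that also regulates Dppa3. Whether this region is that element was not tested.

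One-population regions lay farther from TSSs than shared regions did. The median distance to the nearest TSS was 28.5 kb for DP-only regions, 29.4 kb for Oct4-only regions and 16.5 kb for shared ones, and 3.30%, 2.23% and 5.78% had their centre within 1 kb of a TSS. Over all merged regions the median was 18.7 kb and the share within 1 kb 9.36%, above that of each class. Shared regions were also wider, with a median of 9189 bp against 4682 and 3913 bp. Among all peaks, 10.1%, 9.62% and 9.77% of DP peaks and 12.5%, 12.0% and 11.4% of Oct4+ peaks lay over 100 kb from a TSS. These groups did not overlap (exact two-sided permutation p = 0.10, Benjamini-Hochberg adjusted p = 0.40 over 4 distance classes). In the other distance classes the groups overlapped, with differences of 1.25 percentage points within 1 kb, 0.695 at 1 to 20 kb and 0.214 at 20 to 100 kb.

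The sequence beneath the strongest peaks differed between the populations most at the GATA motif. Windows of 400 bp around the signal maxima of the strongest peaks at equal list length were searched on both strands for 9 fixed motifs, and overlapping matches of different motifs each counted. The motif of the GATA factors, spelled AGATAAG, stood in 18.6%, 17.1% and 17.3% of DP windows and in 4.80%, 4.77% and 5.14% of Oct4+ windows. Windows of the same length 20 kb from each maximum held it in 4.87 to 5.23%, so that Oct4+ peaks were near this background and every DP library was above it. The difference of 12.7 percentage points was far larger than the SDs of 0.795 and 0.203 (n = 3 each; exact two-sided permutation p = 0.10, adjusted p = 0.10 over 9 motifs).

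The groups did not overlap for any of the 9 motifs, each with exact p = 0.10 and adjusted p = 0.10 by permutation. SOX (ACAATG) stood in 27.2% ± 0.442 of DP windows and 18.6% ± 0.342 of Oct4+ windows (SD, n = 3), with 18.9 to 19.4% in the windows 20 kb away. FOX (TGTTTAC), a forkhead site, stood in 6.84% ± 0.440 against 4.98% ± 0.220, with 4.43 to 4.99% away from the peaks. The octamer (ATGCAAAT), bound by OCT4, was in 2.10% ± 0.112 of DP and 3.33% ± 0.0610 of Oct4+ windows, with 1.74 to 2.13% away from them. ESRRB (TCAAGGTCA) was in 1.70% ± 0.179 and 3.42% ± 0.259, with 1.28 to 1.57%. KLF (GGGNGTG) was in 41.4% ± 1.29 and 46.5% ± 1.98, with 24.9 to 27.1%. The mean GC content of the windows was 50.4 to 50.7% in DP and 51.4 to 52.1% in Oct4+, and its part in the KLF difference was not tested.

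**Figure D3:**
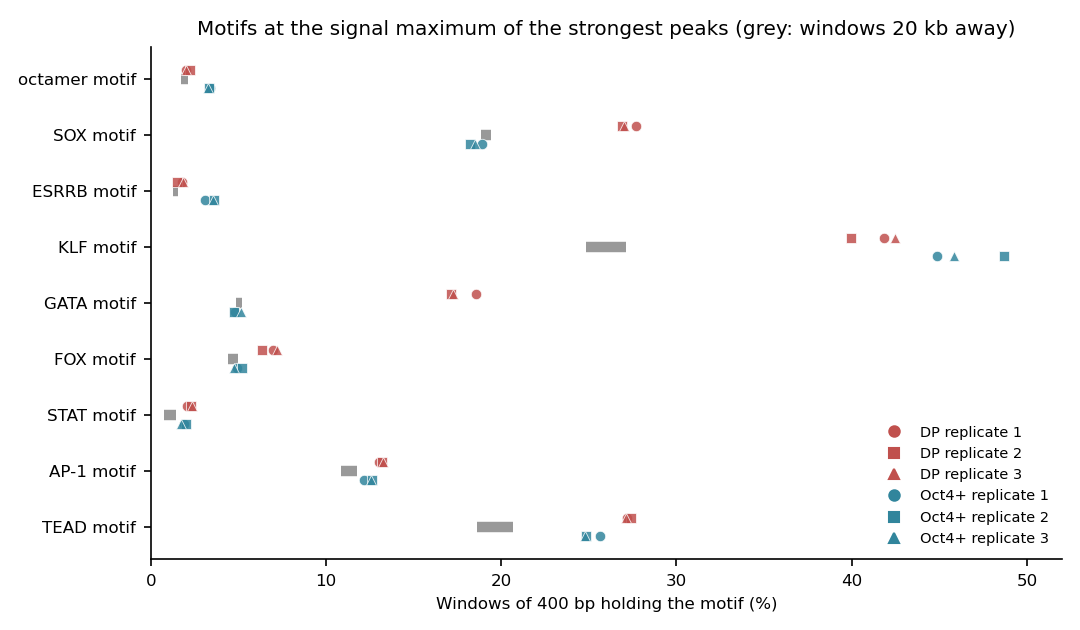
Share of the 400 bp windows around the signal maxima of the strongest H3K4me1 peaks (equal list length) that hold each motif (x axis, %), with libraries as points. Grey bars span the 6 libraries' shares in windows of the same length 20 kb away. GATA stands in 17.1 to 18.6% of DP and 4.77 to 5.14% of Oct4+ windows.

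The remaining motifs were higher in DP. TEAD (CATTCC) stood in 27.2% ± 0.156 of DP windows and 25.1% ± 0.490 of Oct4+ windows, and AP-1 (TGANTCA) in 13.1% ± 0.115 and 12.5% ± 0.239. STAT (TTCCNGGAA) stood in 2.25% ± 0.170 and 1.90% ± 0.146, with 0.751 to 1.43% in the windows away from the peaks. Over the region classes, GATA was in 24.8% of DP-only, 3.29% of Oct4-only and 11.2% of shared regions, in the window around the strongest maximum. ESRRB was in 1.58%, 4.17% and 2.37%, and the octamer in 1.51%, 4.17% and 3.29%. SOX was in 33.2% of DP-only regions against 21.1% and 21.6%.

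Matches of the GATA, ESRRB and octamer motifs are shown for strict regions nearest to a listed gene. Those of the other motifs, SOX and KLF among them, are not shown. GATA was matched in the 400 bp windows of 13 of 36 such DP-only regions, ESRRB in 2 of 32 Oct4-only regions and the octamer in 1 of 32. The lines give 30 bp of the plus strand of GRCm38, 5′ to 3′, with the match in capitals, for the 4 strongest GATA regions of different genes and for every ESRRB and octamer region. They were chosen after the motif shares were seen. A match is a description of the letters and does not show that a factor was bound.
Dkk1 DP-only region, GATA, chr19:30514757-30514786: catacaaagaggCTTATCTcactgaaaacc
Myc DP-only region, GATA, chr15:62223299-62223328: gagatagagatcCTTATCTagcagagtaat
Aqp8 DP-only region, GATA, chr7:123459426-123459455: tgtggtgactatCTTATCTtgctctcacag
Socs1 DP-only region, GATA, chr16:10750178-10750207: tctgggcagcacCTTATCTctccttgaagc
Col18a1 Oct4-only region, ESRRB, chr10:77199653-77199682: gcccagccctgTGACCTTGAatgtcatact
Esrrb Oct4-only region, ESRRB, chr12:86502048-86502077: gcatccctgctTCAAGGTCAactgaaaagc
Kit Oct4-only region, octamer, chr5:75600146-75600175: gctagacagaaATTTGCATtagacaagggg

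The Dkk1, Myc, Aqp8 and Socs1 matches are intergenic, at 118, 193, 170 and 37 bp from the signal maximum. Those at Esrrb and Kit lie in introns of these genes, 148 and 158 bp from it. The Col18a1 match, 78 bp from the maximum, is the one marked in the upstream Col18a1 window above.

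Other marks at the one-population regions were then read from the H3K27ac, H3K27me3 and H3K9me3 lists of the same populations. Oct4-only H3K4me1 regions carried H3K27ac in Oct4+ cells: 70.3%, 80.5% and 28.9% overlapped an H3K27ac peak in the Oct4+ libraries, and 3.49%, 0.388% and 5.62% in the DP libraries. The groups did not overlap (difference, DP minus Oct4+, of -56.8 percentage points, exact two-sided permutation p = 0.10, adjusted p = 0.30 over 6 comparisons). The H3K27ac lists of Oct4+ held 38619, 65131 and 8574 peaks and those of DP 10957, 3079 and 12244, so list length moves with this result. With the 3079 strongest H3K27ac peaks of each library, the shares were 19.8%, 15.9% and 13.5% in Oct4+ and 1.07%, 0.388% and 1.26% in DP.

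At DP-only regions the populations overlapped in H3K27ac with all peaks and not at equal numbers of peaks. With all peaks 50.7%, 14.6% and 50.5% of them overlapped H3K27ac in DP and 31.9%, 50.3% and 5.89% in Oct4+ (exact permutation p = 0.50, adjusted p = 0.80). With 3079 peaks per library the shares were 18.02%, 14.6% and 17.5% in DP and 2.37%, 3.73% and 1.94% in Oct4+, which did not overlap (exact permutation p = 0.10, adjusted p = 0.12). At regions shared by all 6 lists they were 41.1%, 34.3% and 37.5% in DP and 42.8%, 45.2% and 34.3% in Oct4+ at equal numbers. Of the 16 DP-only regions nearest to endoderm transcription factors, 13 had H3K27ac in at least 2 DP libraries and 1 in at least 2 Oct4+ libraries, and at equal numbers of H3K27ac peaks 6 and 0 did. Over all 1393 DP-only regions the counts were 571 and 354, and at equal numbers 223 and 25.

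Shared H3K4me1 regions near naive pluripotency genes differed in H3K27ac. Of 14 such regions, 3 had H3K27ac in at least 2 DP libraries and 13 in at least 2 Oct4+ libraries, and at equal numbers of H3K27ac peaks 1 and 8 did. Over all 761 shared regions the counts were 475 and 660, and at equal numbers 286 and 302. The shared Esrrb region had H3K27ac in 0 of 3 DP and 3 of 3 Oct4+ libraries, and so did 1 shared region each of Dppa3, Klf4, Mycn and Tet2. At equal numbers the Esrrb, Klf4 and Mycn regions kept these counts, the Tet2 region had 0 of 3 and 2 of 3, and the Dppa3 region had H3K27ac in neither population. At Pou5f1 it was 1 of 3 and 3 of 3 under both settings. The shared region nearest to Nanog, in Slc2a3, had 3 of 3 and 3 of 3, and 2 of 3 and 1 of 3 at equal numbers. Upstream of Nanog, in contrast, the regions centred at -4.53 kb (H3K4me1 in 2 DP and 3 Oct4+ lists) and -11.97 kb (0 and 2 lists) each had H3K27ac in 0 of 3 DP and 3 of 3 Oct4+ libraries, which at equal numbers held for the nearer one. These regions were picked with their values known, so no test is given. Shared regions near basement membrane genes, 6 in all, had H3K27ac in at least 2 libraries at 5 regions in DP and 5 in Oct4+.

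**Figure D4:**
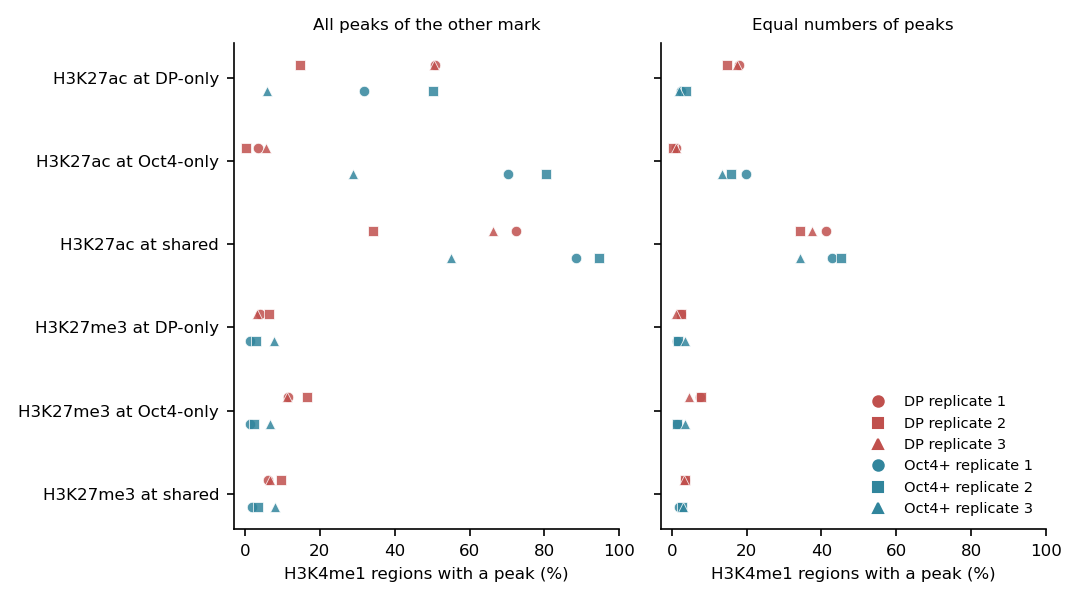
Share of DP-only, Oct4-only and shared H3K4me1 regions that overlap a peak of H3K27ac or H3K27me3 (x axis, %), with all peaks (left) and with 3079 H3K27ac or 1629 H3K27me3 peaks per library (right). Points are libraries of the other mark. H3K27ac at Oct4-only regions is 28.9 to 80.5% in Oct4+ and 0.388 to 5.62% in DP with all peaks.

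H3K27me3 lay at Oct4-only regions in DP. It overlapped 11.4%, 16.5% and 11.2% of them in the DP libraries and 1.36%, 2.33% and 6.69% in the Oct4+ libraries (exact permutation p = 0.10, adjusted p = 0.30). With the 1629 strongest H3K27me3 peaks of each library the shares were 7.56%, 7.75% and 4.55% in DP and 1.36%, 1.36% and 3.49% in Oct4+. The groups did not overlap in either form. The 135 Oct4-only regions with H3K27me3 in at least 2 DP libraries included both Fgf4 regions (chr7:144849484-144862526 and chr7:144863275-144869228) and a region that spans the Bmp4 TSS (chr14:46389674-46392997). They also included the Prdm14 promoter region (chr1:13124748-13129197) and an intronic Nr5a2 region (chr1:136951905-136956704). Each of these 5, picked for this pattern, had H3K27me3 in 3 of 3 DP and 0 of 3 Oct4+ libraries. Other Oct4-only regions carried it in both populations, such as those nearest to Cdh3 and Fgfr3 (3 of 3 DP and 2 of 3 Oct4+) and Pax6 (3 of 3 and 3 of 3).

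At DP-only regions, H3K27me3 overlapped 4.09%, 6.53% and 3.30% in DP and 1.36%, 2.94% and 7.82% in Oct4+, and the groups overlapped (exact permutation p = 0.80, adjusted p = 0.80). Single regions had H3K27me3 in Oct4+ and none in DP: the Pth1r region (chr9:110731845-110757589) in 3 of 3 Oct4+ libraries, and a region upstream of Pdgfra (chr5:75136686-75152339) and the Sox17 promoter region (chr1:4495705-4499592) in 2 of 3. These were picked for this pattern. H3K9me3 overlapped 3.80%, 8.54% and 4.02% of DP-only regions in DP and 5.74%, 4.88% and 2.30% in Oct4+, and 3.59%, 7.46% and 3.88% of Oct4-only regions against 8.43%, 5.43% and 3.10%. The groups overlapped in both (exact permutation p = 0.70, adjusted p = 0.80 for each). With the 12701 strongest H3K9me3 peaks of each library, DP was above Oct4+ in both classes of region, and the groups did not overlap. DP-only regions overlapped at 3.73%, 4.52% and 4.02% in DP and 2.73%, 2.51% and 2.15% in Oct4+ (difference of 1.63 points, exact permutation p = 0.10, adjusted p = 0.12). Oct4-only regions overlapped at 3.39 to 4.46% in the DP libraries and 2.91 to 3.29% in the Oct4+ libraries.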

How the data were processed

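H3K4me1 CUT&Tag was measured in 3 DP and 3 Oct4+ libraries, and the authors called peaks per library against IgG with SEACR in stringent mode from BEDtools coverage. The submitters' processing notes name bcl2fastq 2.19.1, Bowtie2, SAMtools 1.12, deepTools and bedtools 2.26.0, and the build mm10 (GRCm38). The deposited lists hold the total and maximum signal of each peak, unscaled. The SEACR normalization setting is not given in the sources used here.

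Groups follow the sample titles. Peaks were assigned to 21911 GENCODE M21 protein-coding genes by the gene start nearest to the peak centre. Overlaps of at least 1 bp were counted by scripts (Python 3.11.15, NumPy 2.4.6, pandas 2.3.3, pysam 0.24.0) and checked against bedtools 2.31.1. Calls were tested on simulated lists. Libraries were the unit of exact two-sided permutation tests over 20 assignments, with Benjamini-Hochberg adjustment within a family and a threshold of 0.05. P-values measure the spread between these libraries, which the paper's track captions call biological replicates. Part of that spread may be technical. Percent shares were computed here from the lists.

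Named genes were members of 14 gene lists called in either direction, the 10 strict genes per direction with the best mean rank, the 5 genes per direction with the largest difference in peak number and 11 fixed loci. The members and lists were chosen with earlier results of these data known. Alternatives were equal list length, the 50% strongest peaks, other assignments to genes, other windows and overlaps, equal numbers of peaks and leaving out libraries. Pdgfra+ lists were left out, and a few named genes and 1 sequence are not reported here.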

Additional observations from a re-analysis of the deposited data

How the results depend on the processing

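Read depth is unknown, so short lists limit what could be called absent. For the one-population genes, asking for a peak in at least 2 of 3 libraries gave 1254 DP-only and 1152 Oct4-only genes, and nearest TSS within 20 kb gave 272 Oct4-only genes. Of the 468 DP-only and 421 Oct4-only genes, 231 and 211 remained at equal list length, and none turned round under any alternative. Leaving out libraries, one at a time or both replicates 1 together (added after the data were seen), gave 480 to 1182 DP-only genes, 433 to 973 Oct4-only genes, 1402 to 3606 DP-only regions, 1044 to 2925 Oct4-only regions, 637 to 1758 genes with more peaks in every DP list and 560 to 1470 with more in every Oct4+ list. Without both replicates 1 these were 1182, 973, 3606, 2925, 1758 and 1470. Leaving out chromosome 6, also added later, gave 435 and 387 genes. DP-only regions numbered 928 at equal list length, 729 with the 50% strongest and 538 with 50% reciprocal overlap, and Oct4-only regions numbered 539 with the 50% strongest and 579 with reciprocal overlap. Within 20 kb, 403 and 317 genes had more peaks in every DP or Oct4+ list.

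The difference in genes with a peak (DP minus Oct4+) was -9 at equal length and ranged from -877 to 1479 without single libraries. The share of peaks at 20 to 100 kb ranged from -1.44 to 1.82 percentage points and that at 1 to 20 kb from -0.00631 to 1.65. H3K27me3 at DP-only regions turned to -0.335 points with equal numbers of peaks and -0.395 with regions from the strongest peaks, and ranged from -0.742 to 2.49 without single libraries. H3K9me3 at Oct4-only regions turned to 0.840 with equal numbers and ranged from -1.95 to 0.711. H3K9me3 at DP-only regions ranged from -0.395 to 1.97, and H3K27ac at DP-only regions from -2.50 to 21.2. The cause of these turns was not tested. All 81 alternatives for the motif shares kept their direction, with a range of 12.3 to 13.02 points for GATA without single libraries. In peak number per gene, the deviations of libraries of the same number had correlations of 0.0485, 0.0416 and 0.0146 at equal length, none over 0.1, and of 0.0665, -0.0285 and 0.0278 with all peaks, although replicate 1 was the shortest and replicate 2 the longest list in both populations. No source used here says that a number marks a shared culture or sort. The replicate block, with pairs of the same number and an exact sign-flip test whose smallest p is 0.25, left the GATA difference at 12.7 points (adjusted p = 0.25) and changed no call. Of 75 named genes 1 turned round, Col4a2, with 1 DP list fewer than Oct4+ (-1) when peaks were assigned within 20 kb.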

Other observations

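Chromosome 6 held the most peaks of any chromosome in each of the 6 lists. It carries 5.08% of the protein-coding genes and held 12.8%, 9.03% and 9.93% of the DP peaks and 12.9%, 8.53% and 9.51% of the Oct4+ peaks, with overlap between the groups. Its share was 13.1% of DP-only, 14.1% of Oct4-only and 13.1% of shared regions, against 8.19% of all merged regions. Of the DP-only genes 33 and of the Oct4-only genes 34 lay on it, Aqp1, Vwf, Rybp and Nanog being among the genes named above that do. The cause was not tested.

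Vegfa, which encodes an angiogenic growth factor, was nearest to 3 DP-only and 2 Oct4-only regions and to no shared one, and had 4, 8 and 10 peaks in DP and 2, 6 and 3 in Oct4+. Magi1, a scaffold protein gene of cell junctions, was nearest to 2 DP-only, 4 Oct4-only and 1 shared region. These genes were chosen after their values were seen.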
